A study of Rattus norvegicus with 6 samples.

Results

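The 10 chemokine genes described here, Cxcl1, Cxcl2, Cxcl9, Cxcl10, Cxcl11, Cxcl12, Cxcl16, Ccl2, Ccl7 and Cx3cl1, were taken by gene symbol from a table of 17089 genes, and all 10 had a row in it. The values come from RNA sequencing of neonatal rat ventricular myocytes, primary heart muscle cell cultures taken from postnatal day 1 to 3 Sprague Dawley animals. The Tbx18 group (3 libraries) had received an adenovirus carrying Tbx18, an internal ribosome entry site and GFP, and the GFP group (3 libraries) an adenovirus carrying GFP. Cells of both groups were infected on the day of isolation and kept in M199-based medium, with serum at 10% during the first 2 days and at 2% from day 3. Harvest was on day 4 after the virus was added. The headers mark the libraries of both groups as unpace and Control. Tbx18 is a T-box transcription factor of the developing sinus node region, and the study compared cells made to express it, as induced pacemaker cells, with ventricular myocytes. The promoter that drives Tbx18 and the species it came from are not stated in the labels. Both groups carried virus and GFP, and a culture without virus was not analysed here, so what infection does to these genes in both groups alike cannot be read from the comparison. Nothing in the labels says that replicates came from different isolations, so a p-value measures the spread among these 6 libraries, possibly technical spread.

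Chemokines are small secreted proteins that bind G protein-coupled receptors and guide the movement of leukocytes and other cells. They are named by the spacing of their first cysteines into CXC, CC and CX3C families. Cells stimulated through NF-kB, a transcription factor of inflammation, make Cxcl1, Cxcl2, Ccl2 and Ccl7, and interferons induce Cxcl9, Cxcl10 and Cxcl11. Cxcl12 is made by stromal cells under resting conditions, and Cxcl16 and Cx3cl1 are made as membrane-bound proteins on a mucin stalk that can be shed. In the heart, Ccl2 is known for drawing monocytes into injured muscle. The roles given here are those known in mouse and human.

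The libraries held 17074483 to 19800300 gene-assigned reads, and Tbx18 itself was read at 5937 to 6236 normalized counts in Tbx18 libraries against 268 to 312 in GFP libraries, in keeping with the labels of all 6. The deposited table gives read counts divided by 1 size factor per library, called normalized counts below; gene lengths were not applied, so levels are compared only within a gene. Markers of heart muscle cells were present in every library, with summed normalized counts of 394738 to 414703 in Tbx18 libraries and 814707 to 915767 in GFP libraries. Of 9 such markers tested 7 fell and 0 rose, while of 10 fibroblast markers 9 rose and 0 fell. Over all genes tested 22.5% rose and 23.5% fell. In bulk RNA, fewer cells of a type and less RNA per cell cannot be told apart.

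Of the 10 chemokine genes, 8 reached a mean of 10 normalized counts over the 6 libraries and were tested. Cxcl10, Cxcl16 and Cxcl12 were higher in Tbx18 cultures, 0 were lower, and Cxcl1, Ccl2, Ccl7, Cx3cl1 and Cxcl11 did not pass the test (limma, Benjamini-Hochberg adjusted p under 0.05 over all 11230 genes tested). Over all genes tested 46.0% were called, 22.5% higher and 23.5% lower, so 3 of 8 called (37.5%) is below the share of all genes called. At an unadjusted p under 0.05 the same 3 genes were found; edgeR on recovered reads called 3 of the 8 genes (all genes: 23.3% higher and 23.1% lower). DESeq2 called 4, of which Cxcl11 was lower (all genes: 21.7% higher and 23.7% lower). With libraries scaled to equal recovered reads, 5 of the 8 were called higher, and so were 42.6% of all genes, with 12.0% lower. Groups without overlap were seen for 3 of the 8 genes, all higher, against 57.2% of all genes, 28.6% in that direction. The median log2 fold change of the 8 genes was 0.37, beside 0.01 for all genes tested.

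**Figure D1:**
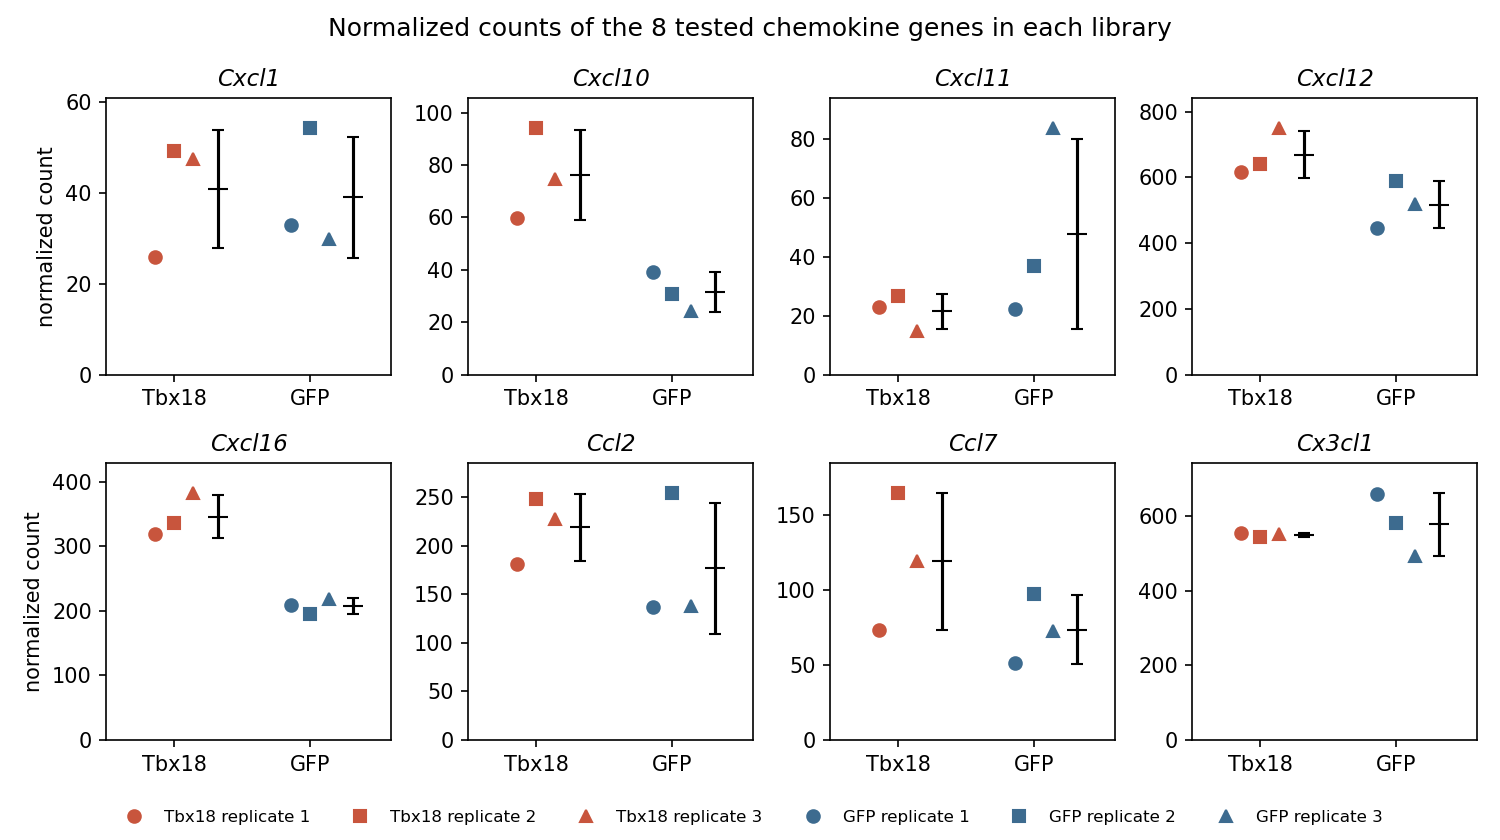
Normalized counts of the 8 tested chemokine genes, with Tbx18 libraries (red) left of GFP libraries (blue), 1 symbol per library, and black bars for mean and SD (n = 3 each). The 3 Tbx18 libraries lay above the 3 GFP libraries for Cxcl10, Cxcl12 and Cxcl16, and the groups overlapped for the other 5 genes.

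The interferon-inducible ligands Cxcl9, Cxcl10 and Cxcl11 bind the receptor Cxcr3 on activated T cells and natural killer cells. Cxcl10 had 59.8, 94.3 and 74.6 normalized counts in Tbx18 libraries, against 39.4, 30.9 and 24.2 in the GFP libraries. All Tbx18 libraries lay above all GFP libraries, and the mean of 76.2 ± 17.3 was 2.42 times the 31.5 ± 7.62 of GFP cultures (SD, n = 3 each). The log2 fold change was 1.25 (SE 0.26, limma adjusted p = 0.00329), and Cxcl10 was called in all 21 refits under alternative settings. These values rest on 65, 92 and 85 recovered reads in Tbx18 libraries and 37, 25 and 21 in GFP libraries.

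Cxcl11, the neighbouring gene, gave 23.0, 26.6 and 14.9 normalized counts in the Tbx18 libraries and 22.3, 37.0 and 84.0 in the GFP libraries. The groups overlapped, and GFP replicate 3 stood above the other 5 libraries. The means were 21.5 ± 6.0 in Tbx18 cultures and 47.8 ± 32.2 in GFP cultures, and the log2 fold change of -0.95 (SE 0.45) did not pass the test (limma adjusted p = 0.109). Without GFP replicate 3 it was -0.44 (limma adjusted p = 0.360). Without GFP replicate 1 it was -1.37 and called lower (limma adjusted p = 0.0130), as it was by DESeq2 (adjusted p = 0.0437), with sample weights in limma (0.0345) and after quantile normalization (0.0188); over its refits adjusted p ran from 0.0130 to 0.360. In the GFP group Cxcl10 was lowest in replicate 3, where Cxcl11 was highest. Cxcl9, the third of these ligands, had 1 read in GFP replicate 2 and 0 in each of the other 5 libraries, where a count of 0 allows up to 3 reads. No fold is given for it.

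Cxcl11, Cxcl10 and Cxcl9 lie next to each other in the RefSeq annotation of GRCr8, with 0 genes between neighbours. The start regions of Cxcl10 and Cxcl11 are shown because these adjacent genes had fold changes of opposite sign. The Cxcl11 change did not pass the test. The start regions of Cxcl16 and Cxcl12 are shown because these were the other called genes. Each is 250 bases before to 50 bases after the annotated start, 5′ to 3′ on the gene's strand, from RefSeq on GRCr8. Capitals mark an interferon-stimulated response element, here GAAA and GAAA with any 2 bases between them, or the NF-kB consensus, each on either strand; both strands can match at overlapping letters, and no element overlaps the other motif.
Cxcl10, chr14:15988816-15989115, plus strand: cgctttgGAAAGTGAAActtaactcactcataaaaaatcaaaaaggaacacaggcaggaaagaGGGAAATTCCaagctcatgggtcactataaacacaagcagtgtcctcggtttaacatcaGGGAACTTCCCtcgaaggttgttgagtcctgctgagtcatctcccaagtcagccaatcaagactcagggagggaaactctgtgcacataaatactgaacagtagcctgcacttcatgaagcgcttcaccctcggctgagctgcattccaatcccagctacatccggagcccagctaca
Cxcl11, chr14:15973478-15973777, plus strand: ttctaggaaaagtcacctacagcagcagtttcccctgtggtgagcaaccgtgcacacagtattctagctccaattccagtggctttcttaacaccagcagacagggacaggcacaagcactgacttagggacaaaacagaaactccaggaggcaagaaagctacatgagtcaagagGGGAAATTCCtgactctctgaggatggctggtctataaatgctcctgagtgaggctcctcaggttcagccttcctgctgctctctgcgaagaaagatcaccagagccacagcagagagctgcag
Cxcl16, chr10:55669901-55670200, minus strand: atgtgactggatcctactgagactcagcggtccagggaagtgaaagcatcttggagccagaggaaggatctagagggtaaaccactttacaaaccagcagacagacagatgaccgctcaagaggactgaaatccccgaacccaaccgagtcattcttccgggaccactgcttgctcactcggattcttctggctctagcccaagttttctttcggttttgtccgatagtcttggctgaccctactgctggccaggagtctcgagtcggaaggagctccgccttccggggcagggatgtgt
Cxcl12, chr4:152060531-152060830, plus strand: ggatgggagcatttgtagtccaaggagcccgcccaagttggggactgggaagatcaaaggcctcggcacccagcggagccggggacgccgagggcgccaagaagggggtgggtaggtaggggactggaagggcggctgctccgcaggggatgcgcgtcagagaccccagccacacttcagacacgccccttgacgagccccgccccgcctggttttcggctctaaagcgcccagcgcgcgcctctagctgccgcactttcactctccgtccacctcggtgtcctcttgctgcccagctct

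Of the 10 genes, 9 had such a window in RefSeq, the exception being Ccl2. The interferon-stimulated element was matched in the window of Cxcl10, as GAAAGTGAAA with its first base 243 bases before the start, and in 0 of the other 8. Of 27457 windows of this length 3.77% held it. The interferon gamma-activated motif TTCNNNGAA was matched in Cxcl9, Cxcl11 and Ccl7, and in 8.68% of all windows. Its matches in Cxcl9 and Ccl7 lay after the annotated start, and that in Cxcl11 began 250 bases before it. The NF-kB consensus was matched in Cxcl1, Cxcl2, Cxcl10, Cxcl11 and Ccl7, and in 7.60% of all windows. In Cxcl10 it was found at 187 and at 128 bases before the start, and in Cxcl11 at 74 bases, with the same letters, GGGAAATTCC, at the first Cxcl10 match and at that of Cxcl11. TGANTCA, a loose form of the AP-1 motif with any middle base, was matched in 7.33% of all windows. The match was TGAGTCA in Cxcl10 and Cxcl11 and TGATTCA in Ccl7. The windows of Cxcl16 and Cxcl12 held neither element in capitals. The T-box letters AGGTGTNA were in 0 of the 9 windows and in 3.03% of all windows. These are letter matches in a short window and say nothing of binding in these cells.

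The membrane-bound ligands differed from each other. Cxcl16, a ligand of Cxcr6 and a scavenger receptor for oxidized lipoprotein, gave 319, 336 and 383 normalized counts in the Tbx18 libraries and 209, 195 and 219 in the GFP libraries. The gap between the groups was wider than the spread within either, with means of 346 ± 32.8 in Tbx18 cultures and 207 ± 11.8 in GFP cultures (SD, n = 3 each). The log2 fold change was 0.73 (SE 0.12, limma adjusted p = 0.000980), a ratio of means of 1.67, and Cxcl16 too was called in all 21 refits. Cx3cl1, or fractalkine, the ligand of Cx3cr1 on monocytes, was read at 554, 544 and 553 normalized counts in Tbx18 libraries and at 661, 583 and 492 in GFP libraries. The Tbx18 libraries fell inside the GFP range, and their coefficient of variation was 1.00% against 14.5% in GFP. Its log2 fold change of -0.06 (SE 0.12) did not pass the test (limma adjusted p = 0.693), and it was called in 0 of 21 refits; it was above 0 with upper-quartile and equal-read scaling and without GFP replicate 1.

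Cxcl12, or stromal cell-derived factor, holds progenitor cells in place through the receptor Cxcr4 and is cleared by Ackr3. Its normalized counts were 616, 640.4 and 751 in the Tbx18 libraries and 447, 588 and 518 in the GFP libraries. The groups did not overlap, but the lowest Tbx18 value stood close to the highest GFP value. The means of 669 ± 72.2 in Tbx18 cultures and 517 ± 70.5 in GFP cultures gave a log2 fold change of 0.37 (SE 0.13, limma adjusted p = 0.0355). The call was lost without GFP replicate 1 (adjusted p = 0.0734), without GFP replicate 3 (0.0661), without Tbx18 replicate 1 (0.0524), replicate 2 (0.0711) or replicate 3 (0.138), without the trend (0.0637) and with sample weights (0.0524), so it was made in 14 of 21 refits; the log2 fold change is also under a fold threshold of 1.5. Adjusted p ran from 0.00173 to 0.138 over them. Fibroblasts are a known source of Cxcl12, and the fibroblast markers summed to 516304 to 600889 normalized counts in Tbx18 libraries against 240595 to 280210 in GFP libraries. Col1a2 was read at no more than 26.3 counts in any library and each of the other 9 markers at 45.7 or more. Their part in the Cxcl12 difference was not tested.

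The monocyte attractants Ccl2 and Ccl7 both act on Ccr2, and their genes are neighbours with 0 genes between them. Ccl2 was read at 181, 248 and 227 normalized counts in Tbx18 libraries and at 137, 254 and 138 in GFP libraries. GFP replicate 2 was the highest of all 6 libraries, above every Tbx18 value, and the other GFP libraries lay below every Tbx18 value. The means were 219 ± 34.1 in Tbx18 cultures and 177 ± 67.4 in GFP cultures, and the log2 fold change of 0.36 (SE 0.24) did not pass the test (limma adjusted p = 0.246). Without GFP replicate 2 it was 0.65 and called higher (limma adjusted p = 0.0155), and with equal recovered reads it was 0.62 (adjusted p = 0.0436); over its refits adjusted p ran from 0.0155 to 0.527.

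Ccl7 gave 73.6, 165 and 119 normalized counts in Tbx18 libraries and 51.1, 97.6 and 72.5 in GFP libraries. Tbx18 replicate 1 lay inside the GFP range and the other Tbx18 libraries above it. With means of 119 ± 45.7 in Tbx18 cultures and 73.7 ± 23.3 in GFP cultures the log2 fold change was 0.66 (SE 0.31, limma adjusted p = 0.112), not past the test. Without Tbx18 replicate 1 it was 0.97 and called (limma adjusted p = 0.0296), and with equal recovered reads 0.92 (adjusted p = 0.0292); over its refits adjusted p ran from 0.0157 to 0.384. Quantile normalization gave a log2 fold change of 0.36 for Ccl7, and leaving out GFP replicate 1 or Tbx18 replicate 2 gave 0.42 and 0.39.

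The neutrophil attractants Cxcl1 and Cxcl2 act on Cxcr2. Cxcl1 was read at 25.8, 49.2 and 47.4 normalized counts in Tbx18 libraries and at 33.0, 54.3 and 29.9 in GFP libraries. The groups were interleaved, and the log2 fold change was 0.05 (SE 0.33, limma adjusted p = 0.906). With that error, a change of the size seen for Cxcl12 was not detectable for Cxcl1. Its sign turned with the setting, from -0.44 after quantile normalization to 0.35 without Tbx18 replicate 1. Cxcl2 had 2, 6 and 4 reads in Tbx18 libraries and 3, 4 and 3 in GFP libraries and was not tested. Its window and that of Cxcl1, another neighbouring pair, matched the NF-kB consensus at 74 and 84 bases before the start. Ccl2, Ccl7 and Ccl12, and likewise Cxcl1, Cxcl2 and Cxcl3, are similar in sequence, and how reads were divided within each trio by the counting is not known.

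**Figure D2:**
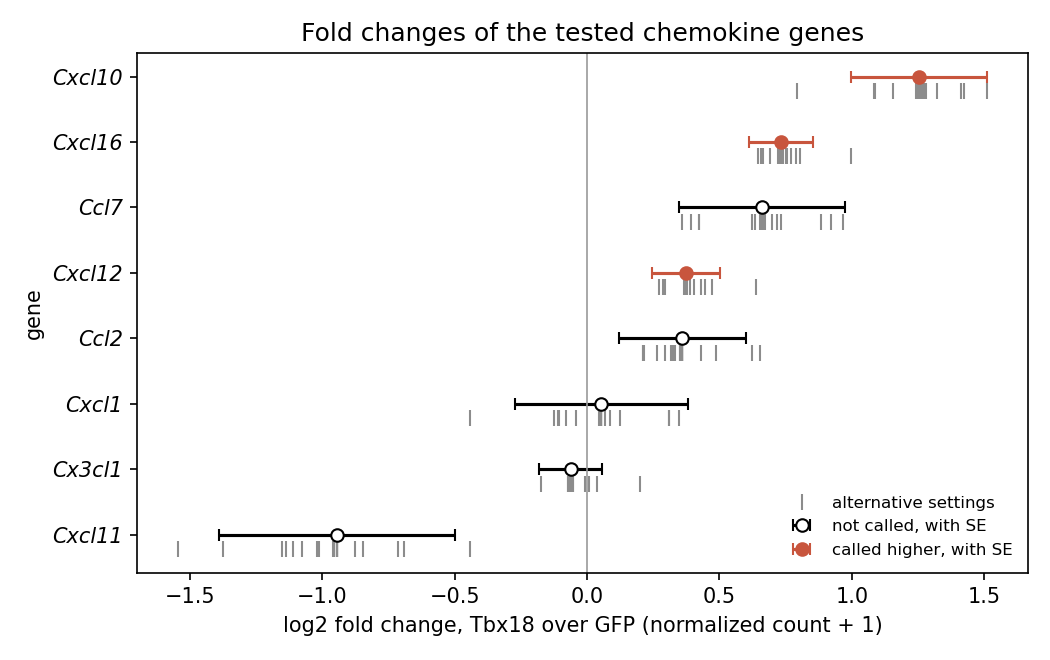
Log2 fold change of each tested chemokine gene, Tbx18 over GFP, on the scale of normalized count plus 1, with its SE (circles with bars; red for genes called higher) and the values under the alternative settings (grey ticks). Cxcl10, at 1.25, and Cxcl16, at 0.73, stayed above 0 under every setting drawn, as did Cxcl12, Ccl2 and Ccl7. Cxcl11 stayed below 0, and the ticks of Cxcl1 and Cx3cl1 lay on both sides of 0.

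Some genes were high or low in the same library within a group. Ccl2, Ccl7 and Cxcl1 were all highest in replicate 2 of the GFP libraries, by 0.59, 0.45 and 0.51 on the log2 scale above their group mean, and the sum of 15 macrophage markers was also highest there, by 0.52. Cxcl12 was highest there too among GFP libraries. Among Tbx18 libraries replicate 2 was highest for Ccl2, Ccl7 and Cxcl1, by 0.19, 0.54 and 0.32, and replicate 3 for the macrophage sum. Tbx18 replicate 1 was lowest for these 3 genes and the macrophage sum. It was also lowest for Cxcl10, Cxcl12, Cxcl16 and the endothelial and cardiomyocyte marker sums. In GFP replicate 2 the endothelial marker sum was 0.40 below its group mean. Of 10 endothelial markers tested 6 rose and 1 fell, beside 22.5% and 23.5% of all tested genes. Cxcl16 deviated by no more than 0.15 in any library. The macrophage markers summed to 2027, 2542 and 2794 normalized counts in Tbx18 libraries and to 1574, 2933 and 1849 in GFP libraries, so the groups overlapped. Of the 15, Cd68, Csf1r and Mrc1 were called higher and 0 lower, and none was at 0 in every library. The share called was 20%, beside 46.0% of all tested genes. The count called higher was 7 without GFP replicate 2, 1 without GFP replicate 3, 1 without Tbx18 replicate 2 and 0 without Tbx18 replicate 3. Their part in the chemokine values was not tested.

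**Figure D3:**
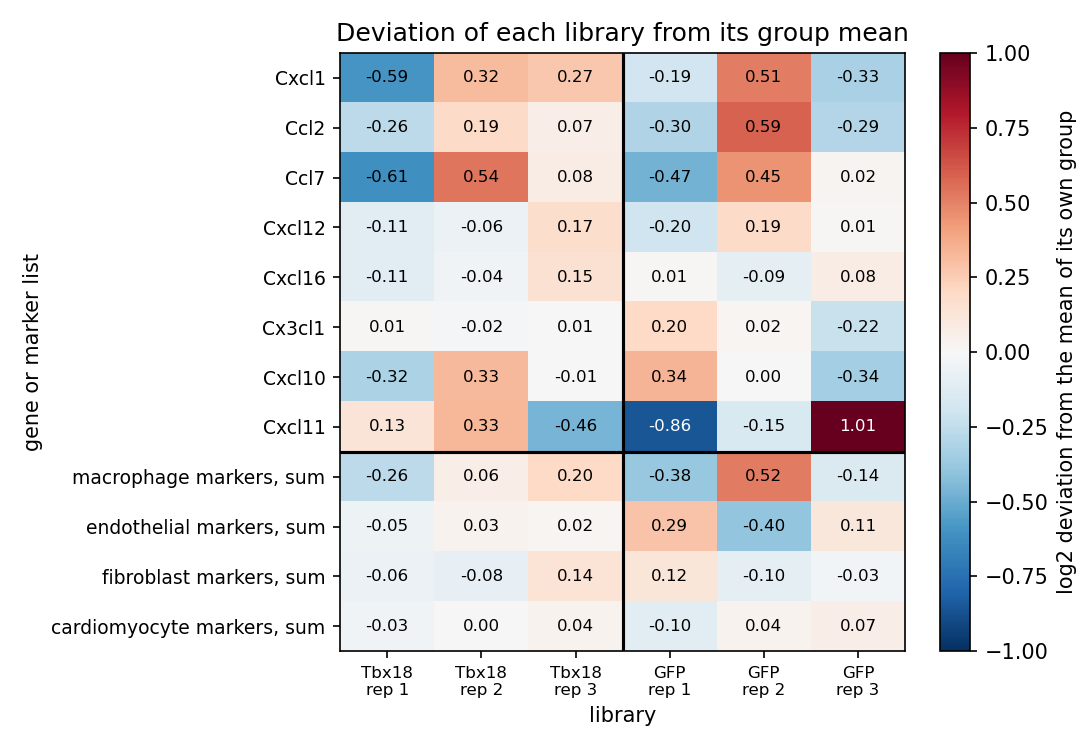
Deviation of each library from the mean of its own group on the log2 scale, for the 8 tested chemokine genes and for the summed counts of 4 marker lists, with Tbx18 libraries left of GFP libraries. GFP replicate 2 is high for Ccl2, at 0.59, and for the macrophage marker sum, at 0.52, and GFP replicate 3 is high for Cxcl11, at 1.01.

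Lymphocyte and neutrophil markers were near the floor of the data. Of the 11 lymphocyte markers present, 5 were at 0 in every library, among them Cd3d and Cd3e, and their sum was 48.8 to 74.6 normalized counts in Tbx18 libraries and 28.8 to 44.5 in GFP libraries. Cd8a had 15.6 to 22.5 counts in Tbx18 libraries and 1.15 to 8.64 in GFP libraries and passed the filter only through its Tbx18 values, so its call is not read as a result. Of 8 neutrophil markers 0 reached the test, and they summed to 4.10 to 18.4 counts in Tbx18 libraries and 6.17 to 20.7 in GFP libraries.

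Genes whose values ran most like those of a chemokine were sought among 9225 other genes with a mean of at least 100, by the root mean square distance between log2 profiles centred on their means over the 6 libraries. Nearest to Cxcl10 were Igtp, an interferon-inducible GTPase, at a distance of 0.0590, Irf9, a DNA-binding interferon regulatory factor, at 0.138, and Aass, an enzyme of lysine breakdown, at 0.161. Cxcl11 lay at 1.35 from Cxcl10. Nearest to Cxcl12 were Vat1, Ttc9 and the ribosomal protein gene Rps28, at 0.0463 to 0.0623. Nearest to Ccl2 were Lcp1, an actin-bundling protein of leukocytes, at 0.137, Mettl7a at 0.141, and Emb, a cell adhesion glycoprotein, at 0.166. The distance takes in the difference between the groups, so a nearest gene has a similar group difference by the way it was chosen. Igtp averaged 367 ± 72.7 normalized counts in Tbx18 cultures and 148 ± 32.1 in GFP cultures, and Lcp1 370.0 ± 31.6 and 258 ± 94.0 in Tbx18 and GFP cultures (SD, n = 3 each).

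Other chemokine ligands gave 0 calls in limma among 8 tested of 24 present, beside 46.0% of all tested genes called. At an unadjusted p under 0.05 there was 1, Pf4, or platelet factor 4, named here after its values were seen, with 174, 205 and 271 normalized counts in Tbx18 libraries and 71.3, 206 and 107 in GFP libraries (limma adjusted p = 0.0580). edgeR called 0 and DESeq2 1 of them, quantile normalization gave 2 lower, and without GFP replicate 2 limma called 4 higher. Their median log2 fold change was 0.24, beside 0.01 for all genes.

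Among the 19 receptors present, 5 were tested. Of these 2 were called higher and 1 lower, beside 22.5% and 23.5% of all tested genes. The higher calls were Ackr3 and Ccr7, of which that of Ccr7 is not read as a result. Ackr3, the scavenging receptor of Cxcl12 and Cxcl11, listed under its older symbol Cxcr7, was read at 288, 279 and 252 normalized counts in Tbx18 libraries and at 196, 182 and 169 in GFP libraries. The groups did not overlap, and its log2 fold change was 0.58 (SE 0.12, limma adjusted p = 0.00411). Cxcr4, the signalling receptor of Cxcl12, was at 263, 258 and 256 counts in Tbx18 libraries and at 362, 138 and 219 in GFP libraries, where the spread covered all Tbx18 values (log2 fold change 0.22, limma adjusted p = 0.544); it was -0.12 without GFP replicate 2, and 0.57 and called higher without GFP replicate 1 (limma adjusted p = 0.0236). Ccr7, a homing receptor of dendritic cells and T cells, had 19.3, 13.3 and 22.8 counts in Tbx18 libraries and 2.13, 2.47 and 2.30 in GFP libraries. It passed the filter only through its Tbx18 values, so its call is not read as a result. With any 1 of the Tbx18 libraries left out Ccr7 did not reach the test, which left 1 receptor higher. Ccrl2, which binds chemerin, was at 79.4 ± 0.492 in Tbx18 cultures and 107 ± 4.72 in GFP cultures (log2 fold change -0.43, limma adjusted p = 0.0415), a call made in 10 of 21 refits: it was lost without any 1 of the 6 libraries, with upper-quartile and equal-read scaling, with no filter, by DESeq2 and with the replicate block. Ccr10, a receptor of Ccl27, did not pass the test (adjusted p = 0.340 in limma). Cxcr3, the receptor of Cxcl10, was read at 4.60, 6.15 and 4.39 counts in Tbx18 libraries and at 0, 0 and 1.15 in GFP libraries and was too low to test, as were Cxcr2, Cxcr6 and Cx3cr1, the receptors of Cxcl1, Cxcl16 and Cx3cl1. The symbol of Ccr2, the receptor of Ccl2 and Ccl7, was not matched, so no value is given for it.

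Several factors that relay interferon signals were higher in Tbx18 cultures. Of 17 tested interferon regulatory factors, kinases, feedback regulators and targets, 9 rose and 2 fell, with a median log2 fold change of 0.40. The share called was 64.7%, beside 46.0% of all tested genes (22.5% higher and 23.5% lower). The count higher was 6 without Tbx18 replicate 3, and 7 without Tbx18 replicate 1 or 2 or after quantile normalization. With equal recovered reads 10 rose and 1 fell, beside 42.6% and 12.0% of all genes. Irf7, an interferon-induced regulator, averaged 1075 ± 394 normalized counts in Tbx18 cultures and 74.2 ± 10.7 in GFP cultures, and its log2 fold change was 3.77. Gbp5 and Gbp2, guanylate-binding proteins induced by interferon, rose by 1.99 and 1.47, and Irf9 by 1.47. Irf1, which is known to act on Cxcl10, rose by 0.43 (limma adjusted p = 0.0317); Irf1 was no longer called after quantile normalization, nor when GFP replicate 3 or any single Tbx18 library was left out. Of the interferon genes only Ifng and Ifnb1 were looked up. Ifng was at 0 in every library and Ifnb1 at 0 in all but Tbx18 replicate 3, at 0.878 counts.

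Of 17 tested genes of inducing cytokines, their receptors and Toll-like receptors, 7 rose and 4 fell. Of all tested genes 22.5% were higher and 23.5% lower. With equal recovered reads 9 of the list were higher and 1 lower, beside 42.6% and 12.0% of all genes. Without Tbx18 replicate 1 or after quantile normalization 2 were lower. Il33, an alarmin of the interleukin 1 family, rose by 2.06 on the log2 scale, Tlr3, a sensor of double-stranded RNA, by 1.52, Il1r1, the signalling receptor of interleukin 1, by 1.26 and Il17ra, an interleukin 17 receptor chain, by 0.90. Of 18 tested NF-kB subunits, regulators and targets 5 rose and 3 fell, and with equal recovered reads 9 rose; leaving out Tbx18 replicate 3 gave 3 higher. The 44.4% called is near the 46.0% of all tested genes, and with equal recovered reads 42.6% of all genes were higher. The adhesion molecule genes Vcam1 and Icam1 rose by 1.31 and 0.66, while Nfkbiz, an atypical inhibitor, and Sod2, the mitochondrial superoxide dismutase, fell by 0.77 and 0.65. Nfkbia, the inhibitor that NF-kB itself induces, was at 279.9 ± 20.5 normalized counts in Tbx18 cultures and 312 ± 21.4 in GFP cultures and did not pass the test (limma adjusted p = 0.30); its log2 fold change of -0.15 was 0.11 with equal recovered reads.

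Of genes that act on chemokines after transcription, 33.3% of mRNA decay factors, 46.2% of cleaving enzymes and 43.8% of heparan sulphate genes were called, beside 46.0% of all tested genes. With equal recovered reads, the all-gene shares are 42.6% higher and 12.0% lower. Of 9 tested mRNA decay factors 3 fell and 0 rose in limma, where 4 had an unadjusted p under 0.05 and edgeR and DESeq2 each called 3: Zfp36, or tristetraprolin, which targets cytokine transcripts, by 0.77 on the log2 scale, Zc3h12c by 0.62 and Zc3h12a, or regnase 1, by 0.36 (limma adjusted p = 0.0415). With equal recovered reads 4 decay factors rose and 1 fell, and without Tbx18 replicate 1 only 1 fell. The Zc3h12a call was made in 12 of 21 refits and lost without any 1 library except GFP replicate 1, with upper-quartile and equal-read scaling, with no filter and with the replicate block, and Zc3h12c was not called without Tbx18 replicate 1 or with equal recovered reads. Of 13 tested cleaving enzymes and their inhibitors 5 rose and 1 fell, or 9 and 0 with equal recovered reads. The matrix metalloproteinase genes Mmp14 and Mmp2 rose by 1.6 and 1.00, the cathepsin gene Ctsk by 0.93 and Timp2, an inhibitor of metalloproteinases, by 0.81. Dpp4, a peptidase that trims Cxcl10 and Cxcl12, had no more than 6.90 counts in any library and was not tested. Of 16 tested genes of heparan sulphate proteoglycans and their synthesis, which hold chemokines at the cell surface, 5 rose and 2 fell, or 12 and 1 with equal recovered reads, and 8 rose without GFP replicate 1. Sdc2, Hs6st1 and Sdc3 rose by 1.00, 0.90 and 0.88, while the glypican gene Gpc1 fell by 1.1, to 5983 ± 236 in Tbx18 cultures against 13316 ± 1976 in GFP cultures (SD, n = 3 each).

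**Figure D4:**
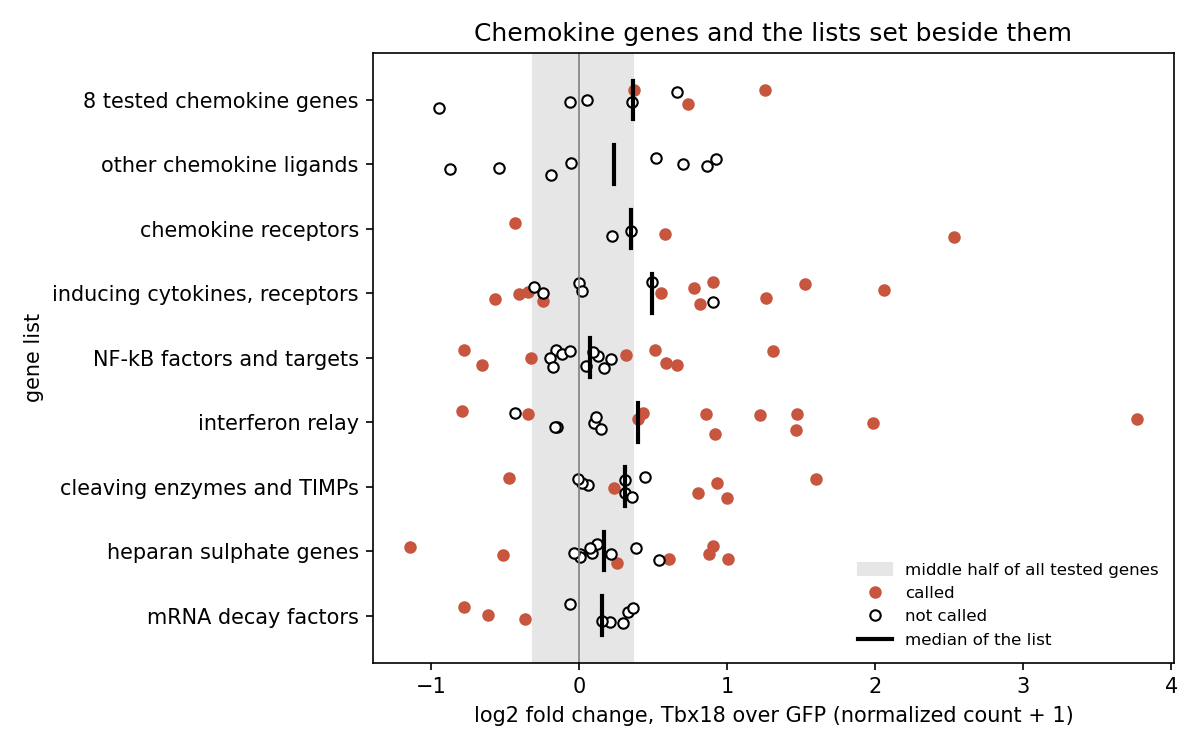
Log2 fold change, Tbx18 over GFP on the scale of normalized count plus 1, of the 8 tested chemokine genes and of the tested genes of 8 lists set beside them, with filled circles for called genes and black bars for list medians. The grey band is the interquartile range of all tested genes; the median is 0.37 for the chemokine genes and 0.40 for the interferon relay.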

How the data were processed

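RNA of 6 cultures, from 100 ng of total RNA per library and a stranded mRNA kit, was read as 101 bp pairs, per the labels' protocols. Tools in the submitters' processing notes are STAR 2.4.0g1, DESeq2 1.10.1, HTSeq and bcl2fastq 2.17.1.14, with no roles. Genome build, annotation and strand setting were not given in the sources used here. The deposited signal is, per the file headers, DESeq2-normalized counts, in which the authors divided read counts by a size factor per library. Dividing by each column's smallest step gave whole reads within 0.01 for 100% of values; spread between libraries, not counting error, is given. Of 17089 genes 2912 were at 0 throughout.

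The test was limma (3.58.1, R 4.3.3) with a mean-variance trend and no block, on log2(normalized count + 1), for 11230 genes with a mean of at least 10; Benjamini-Hochberg adjusted p under 0.05 over all of them was called. Folds on that scale understate changes of low genes. The members and lists were chosen with earlier results of these data known. Of 224 list symbols in 14 lists 18 were not matched, 4 were matched by an older symbol and 1 shared a row with another. Named were all chemokine members, tested receptors, the 4 called genes of largest change per list, and Ackr3, Cxcr4, Dpp4, Nfkbia, Irf1 and Zc3h12a, and the 3 nearest profiles of Cxcl10, Cxcl12 and Ccl2; marker genes, Pf4 and receptors too low to test were named after their values were seen. Alternatives were other scalings, pseudocounts, filters and limma settings, count models on recovered reads (DESeq2 1.42.0, edgeR 4.0.16), each library left out in turn, a fold threshold, and a replicate block. The fit was checked on simulated counts. An item of the interferon list is not reported here.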

Additional observations from a re-analysis of the deposited data

How the results depend on the processing

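The count of 3 chemokine genes called higher became 5 with equal recovered reads, ranged from 2 to 4 when 1 library was left out, and stayed between 2 and 4 elsewhere. The count of 0 called lower became 1, Cxcl11, with quantile normalization, with sample weights in limma and by DESeq2, and ranged from 0 to 1 when 1 library was left out. Over all genes, 2525 higher and 2639 lower became 4792 and 1351 with equal recovered reads, where the median over all genes was 0.27 and over the chemokine genes 0.63 (log2), and 1635 and 1285 with a fold threshold of 1.5. Cxcl1, at 0.05, was -0.44 after quantile normalization and -0.12 with sample weights, and -0.11 to 0.35 with 1 library left out. Cx3cl1, at -0.06, was 0.00903 with upper-quartile scaling, 0.20 with equal recovered reads and -0.17 to 0.0387 with 1 library left out. Ccr10 was -0.30 after quantile normalization, Nfkbia 0.11 with equal recovered reads, and Cxcr4 -0.12 to 0.57 with 1 library left out. The causes were not tested. Across all tested genes same-numbered libraries deviated together little (correlations of -0.00474, 0.151 and 0.0165), so the numbers were not taken as pairs. The 0.151, for replicate 2, was the largest for any Tbx18 and GFP library. Ccl2, Ccl7 and Cxcl1 were highest in replicate 2 of both groups, Cxcl16 in replicate 3 and Cx3cl1 in replicate 1. Cxcl10, Cxcl11 and Cxcl12 were highest in replicates of different number. With the replicate block 4 chemokine genes were called higher, Ccl7 among them (adjusted p = 0.0157 in limma), and 0 lower. Low depth limits Cxcl2 and Cxcl9, and Cxcl10, Cxcl11 and Cxcl1 rest on 17 to 92 reads per library.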
